A study of Mus musculus with 42 samples.

Results

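The experiment described here asked whether a diet without branched-chain amino acids (BCAA) changes how leukaemia cells translate their mRNA after chemotherapy. It used ribosome footprints, the short mRNA stretches that ribosomes shield from nuclease, sequenced from 21 mice, 1 library per mouse. These are 21 of the 42 libraries of the study; the other 21 hold the mRNA of the same mice. All footprint libraries of the 4 groups were taken, so no measured value chose them. The groups were the standard amino acid diet with vehicle (AA vehicle, 5 mice), the same diet with chemotherapy (AA 5+3, 4 mice), the BCAA-free diet with vehicle (BCAA vehicle, 5 mice) and the BCAA-free diet with chemotherapy (BCAA 5+3, 7 mice).

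Every mouse was a male of 8 to 10 weeks that carried the same MLL-AF9 acute myeloid leukaemia, a line whose cells carry GFP and luciferase and which came from 1 terminally ill mouse after growth in culture. The cells were injected by vein into recipients that had not been conditioned, so each mouse also kept its own blood cells, and the labels give the genotype as WT. Chemotherapy (5+3) was cytarabine at 100 mg/kg a day for 5 days with doxorubicin at 3 mg/kg a day on the first 3 days. The vehicle was PBS. Viable GFP-positive cells were sorted from crushed bone after red cell lysis, at the time of the greatest response to chemotherapy. Mice of the AA vehicle group alone have names that end in B, with no reason given in the labels. Should the letter stand for a batch, it cannot be told apart from that group, which enters the comparison below directly.

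The measure throughout is the interaction: the log2 change with 5+3 on the BCAA-free diet minus the log2 change with 5+3 on the amino acid diet. A negative interaction means that the response was lower on the BCAA-free diet. Levels are in CPM, footprint counts scaled to the size of each library, and a gene passed where its Benjamini-Hochberg adjusted p in edgeR's quasi-likelihood test was under 0.05. A passed gene was called lost where the response passed on the amino acid diet alone and gained where it passed on the BCAA-free diet alone. It was called reversed where both responses passed with opposite signs.

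Branched-chain amino acids are leucine, isoleucine and valine, which mammals must eat. Leucine signals to mTORC1, a kinase that raises translation, and uncharged tRNAs activate GCN2, which raises ATF4, a transcription factor of amino acid supply genes. Cells also run dedicated programmes for sterol supply (SREBP2), for protein folding in the endoplasmic reticulum (the unfolded protein response) and in the cytosol (heat shock factor). Cytarabine and doxorubicin damage DNA and activate p53.

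Footprint libraries held 2697092 to 8863472 counts, with a median of 4683466, and 49.0% to 56.1% of them fell on protein-coding genes. Rows annotated as pseudogenes took 27.8% ± 1.75 (SD, n = 7) of the counts in BCAA 5+3, against 25.2% ± 2.83 (n = 5) in AA vehicle, 24.5% ± 1.19 (n = 4) in AA 5+3 and 24.0% ± 1.92 (n = 5) in BCAA vehicle. The leukaemia factors Hoxa9 and Meis1 were found in each library, at 25.1 to 43.2 CPM and 34.7 to 53.6 CPM. Cd3e of T cells stayed at or under 0.502 CPM in each library.

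Of 9849 protein-coding genes tested, 593 (6.02%) passed the interaction test. Of these, 116 (1.18% of the genes tested) had a higher and 477 (4.84%) a lower response on the BCAA-free diet. At an unadjusted p under 0.05 there were 2142 genes (21.7%). On the amino acid diet 5+3 changed 630 genes (6.4%), of which 338 (3.43%) rose and 292 (2.96%) fell. On the BCAA-free diet it changed 2111 genes (21.4%), of which 565 (5.74%) rose and 1546 (15.7%) fell. That excess of falls depended on the scaling: on protein-coding rows alone 1054 rose and 1151 fell, of 9893 tested. The 2 diets were not tested with equal precision. The amino acid diet had 9 mice and a median SE of 0.17 for the response, and the BCAA-free diet 12 mice and 0.14. How far this shaped the counts on each diet was not tested. Shares of all genes given below are those of the fit on all rows. The median gene had an interaction of -0.10. Scaled on protein-coding rows alone, that median was 0.00 (-0.00387), and 463 genes passed, of which 195 were higher and 268 lower. The lower share of the calls was then 57.9% in place of 80.4%, and 383 genes passed under both scalings, 64.6% of the 593 and 82.7% of the 463. The count also moved with single libraries: it was 301, 394 and 385 without AA 5+3 replicates 1, 2 and 3, and 327 without BCAA vehicle replicate 5.

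Gained responses were the most frequent class, with 393 of the 593 genes (66.3%). Of these, 336 fell and 57 rose with 5+3 on the BCAA-free diet, in the fit scaled on all rows. Lost responses came to 107 genes (18%), of which 73 had risen and 34 had fallen on the amino acid diet. Responses were reversed in 28 genes: 20 rose on the amino acid diet and fell on the BCAA-free diet, and 8 did the opposite. The first set was Saa3, Mvd, Ccdc134, P4ha1, Mov10, Ints3, Acat3, Arfgap3, Ints8, Fdps, Acat2, Ddt, Fdft1, Msmo1, Syvn1, Rbm14, Dnaja1, Cnot6, Sec24c and Zfp207. The second was Lin7c, Ezr, Rbm3, Fnbp4, Tcam1, 2410002F23Rik, Srsf5 and Ptpn13. In 64 genes neither response passed by itself, and 1 gene, Evl, changed in the same direction on both diets by different amounts. Whatever the class, the fitted responses pointed in opposite directions in 526 of the 593 genes (88.7%).

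The difference between the diets lay mostly among the treated mice. Of the 593 genes, 546 also differed between the diets under 5+3, 24 differed under vehicle and 9 under both; over all genes tested these comparisons called 29.7% and 2.05%. These comparisons share their libraries with the interaction, so the counts describe it and do not support it. BCAA 5+3 was the group farthest from the mean of the other 3 for 372 genes (62.7%; 38.3% of all genes tested) and was the low group in 322 of them. AA 5+3 was farthest for 168 genes (28.3%; 27.2% of all) and was the high group in 123. At the threshold, the last genes to pass were Crlf3, Atad2 and Zfp260 (adjusted p 0.0499), and the first to miss it were Slc25a5 (0.05), Nisch (0.0502) and Cyren (0.0502).

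**Figure D1:**
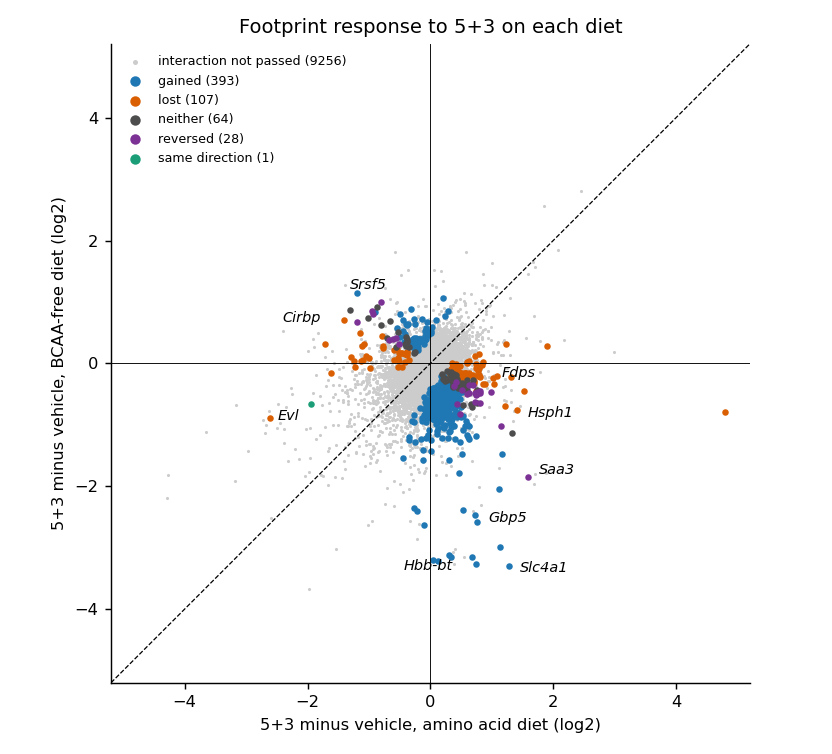
Each point is 1 of the 9849 protein-coding genes, with its fitted log2 response to 5+3 on the amino acid diet (horizontal) and on the BCAA-free diet (vertical); the dashed line marks equal responses, and 1 gene lies outside the axes. Coloured genes passed the interaction test, and most lie below the line: 477 of 593.

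Cholesterol synthesis was the list with the most calls. Of 25 genes of cholesterol synthesis and uptake tested, 15 passed and all 15 had a lower response on the BCAA-free diet, where 4.84% of all genes did. On the amino acid diet 12 of the 25 rose with 5+3 (3.43% of all genes rose) and none fell. None rose and 7 fell on the BCAA-free diet (15.7% of all genes fell). The median response was 0.57 on the amino acid diet and -0.25 on the BCAA-free diet, with a median interaction of -0.82 against -0.10 over all genes. By class, 7 responses were lost, 5 reversed and 2 gained, and for Hmgcs1 neither response passed. No member differed between the diets under vehicle, and 18 were lower on the BCAA-free diet under 5+3 (21% of all genes).

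Early steps of the pathway build isoprenoid units. Fdps, farnesyl diphosphate synthase (chr3:89093588-89101967), had 94.7, 128, 82.4, 102 and 95 CPM in the AA vehicle mice and 208, 202, 141 and 147 in the AA 5+3 mice. In the BCAA vehicle mice it had 81.8, 74.3, 80.6, 76.1 and 94.9 CPM, and in the 7 BCAA 5+3 mice 55.4 to 67.0 with a median of 60.2. Each AA 5+3 mouse was above, and each BCAA 5+3 mouse below, all other mice. Fdps rose by 0.80 ± 0.12 (SE) on log2 on the amino acid diet (adjusted p = 0.000321) and changed by -0.45 ± 0.11 on the BCAA-free diet (adjusted p = 0.00494), an interaction of -1.25 ± 0.16 (adjusted p = 0.000109). Mvd, which decarboxylates mevalonate diphosphate, was reversed as well, by 1.15 against -1.02. Its level was low, at 6.68 to 10.9 CPM in AA 5+3 and 0.951 to 2.47 CPM in BCAA 5+3. Idi1, the isomerase between these steps, was lost: it had 27.2, 28.1, 26.2, 27.5 and 27.7 CPM in AA vehicle and 51.7, 49.9, 43.8 and 41.3 in AA 5+3. Without BCAA in the diet Idi1 had 24.2, 27.5, 30.6, 31.6 and 35.1 CPM with vehicle and 20.0 to 29.6 (median 26.9) with 5+3, and these groups overlapped. Its interaction was -0.98 ± 0.15 (adjusted p = 0.000975).

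Later enzymes, which make and trim the sterol ring, followed the same pattern. Lss, which closes the ring, had an interaction of -1.27 (lost), as had Cyp51 (-0.99) and Sqle (-1.03), the squalene epoxidase. Fdft1, which makes squalene, was reversed (-1.11), and so was Msmo1 (-1.10), a sterol oxidase. Acat2, an acetyl-CoA acetyltransferase, was reversed (-1.23), but it and its near copy Acat3 (-1.29) may share reads. Srebf2, which encodes the controlling transcription factor, had -0.60 (adjusted p = 0.0707) and did not pass. The count of 15 was 12 when scaled on protein-coding rows alone and 11 to 16 when any 1 library was left out. In the mRNA of the same mice 0 of the 25 genes passed in edgeR, with a median interaction of -0.06. An unadjusted p under 0.05 was found for 6, all lower (14% of all mRNA genes in either direction), and 2 passed in DESeq2.

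The unfolded protein response list, of chaperones and clearance factors of the endoplasmic reticulum, came next, with 13 of 29 genes passed, all 13 lower (4.84% of all genes). On the amino acid diet 14 members rose (3.43% of all genes) and 1 fell, with a median of 0.27. On the BCAA-free diet none rose and 5 fell, a share near the 15.7% of all genes, with a median of -0.11. Of the 13, 10 were lost, 2 gained and 1 reversed. Hspa5 (BiP, chr2:34772090-34776529), the main chaperone of the compartment, had 668, 760, 563, 619 and 560 CPM in AA vehicle and 1077, 1142, 1346 and 1021 in AA 5+3. It had 802, 659, 690, 718 and 817 CPM in BCAA vehicle and 430 to 799 (median 553) in BCAA 5+3. The AA 5+3 mice were above all others, and the other 3 groups overlapped. Hspa5 rose by 0.86 ± 0.14 on the amino acid diet (adjusted p = 0.000488), its response on the BCAA-free diet was -0.33 ± 0.12 (adjusted p = 0.0523), and the interaction was -1.18 ± 0.18 (adjusted p = 0.000762).

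Creld2, a folding factor of the same compartment, had 13.0, 19.1, 12.0, 15.1 and 14.3 CPM in AA vehicle and 25.5, 24.4, 32.1 and 25.8 in AA 5+3. In BCAA vehicle it had 12.2, 12.0, 12.2, 18.1 and 15.0 CPM, and in BCAA 5+3 8.49 to 15.5 (median 9.57). Its interaction was -1.23 ± 0.23 (adjusted p = 0.00263), and again AA 5+3 stood above the other groups, which overlapped. Other lost members were Sdf2l1 (-0.84), Manf (-0.78), Dnajc3 (-0.68), Hyou1 (-0.59), Pdia4 (-0.56) and Pdia3 (-0.51). Syvn1, the ubiquitin ligase that clears misfolded proteins, was reversed (0.43 and -0.65). The gained members Dnajb9 (-1.21) and Herpud1 (-0.75) fell on the BCAA-free diet alone. Xbp1, whose spliced form drives the response, had an interaction of -0.57 (adjusted p = 0.066), and Calr, a lectin chaperone, -0.21 (adjusted p = 0.366); neither passed. The count of 13 was 9 on protein-coding rows alone. In mRNA 0 of 30 members passed in edgeR and 0 in DESeq2. An unadjusted p under 0.05 was found for 5, all lower, a share near the 14% of all mRNA genes in either direction. The mRNA interaction was 0.01 ± 0.56 for Hspa5 (adjusted p = 0.997) and -1.02 ± 0.33 for Creld2 (adjusted p = 0.266).

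In the cytosol 4 of 26 heat shock chaperones passed, all lower (4.84% of all genes). Hsph1 (Hsp110, chr5:149616843-149636498), which recharges Hsp70, had 46.9, 58.8, 43.9, 56.6 and 52.6 CPM in AA vehicle and 113, 117, 173 and 149 in AA 5+3. It had 32.1, 30.7, 25.7, 53 and 54.7 CPM in BCAA vehicle and 14.2 to 44.4 (median 15.1) in BCAA 5+3. The AA 5+3 mice lay above all others, and the BCAA-free groups overlapped. Its interaction of -2.17 ± 0.42 (adjusted p = 0.00632) was the largest in size among lost genes with a mean of at least 10 CPM. Dnaja1, a partner of Hsp70, had 120, 144, 167, 145 and 153 CPM in AA vehicle and 200, 216, 242 and 243 in AA 5+3. In BCAA vehicle it had 135, 136, 162, 186 and 192 CPM, and in BCAA 5+3 102 to 171 (median 117). It was reversed (0.62 and -0.35; interaction -0.97 ± 0.18, adjusted p = 0.00275). Hspa4l (-0.67) and Chordc1 (-1.39) also passed, the second not on protein-coding rows alone. On the amino acid diet 9 of the 26 rose (3.43% of all genes). On the BCAA-free diet 7 rose (5.74%) and 2 fell (15.7%), and the median interaction was -0.16. The abundant Hsp90aa1 rose on both diets (0.70 and 0.35; interaction adjusted p = 0.147), as did the mitochondrial Hspd1 (0.54 and 0.46; 0.818).

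Cirbp and Rbm3 encode RNA-binding proteins known to be induced by cold, and Srsf5 is a splicing factor of the SR family. Their interactions were above 0, unlike those of the chaperones that passed. Srsf5 (chr12:80945495-80950507) had 152, 145, 134, 137 and 117 CPM in AA vehicle and 70.6, 66.3, 65.6 and 79.3 in AA 5+3. It had 153, 102, 141, 115 and 89.8 CPM in BCAA vehicle and 178 to 277 (median 217) in BCAA 5+3. The AA 5+3 mice lay below, and the BCAA 5+3 mice above, all other mice. Its response was -0.96 ± 0.14 on the amino acid diet and 0.85 ± 0.12 on the BCAA-free diet, an interaction of 1.81 ± 0.18 (adjusted p = 2.87e-06).

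Cirbp (chr10:80165990-80172786) had 27.2, 16.9, 28.7, 20.5 and 18.5 CPM in AA vehicle and 8.16, 9.60, 6.54 and 9.11 in AA 5+3, which was below all other mice. On the BCAA-free diet it had 42.7, 36.3, 46.6, 26.4 and 21.4 CPM with vehicle and 22.4 to 79.6 (median 64.9) with 5+3, and these overlapped. Its interaction was 2.11 ± 0.42 (adjusted p = 0.00781). Rbm3 was reversed (-0.60 and 0.39; interaction 0.99 ± 0.17, adjusted p = 0.00135). It had 182, 220, 187 and 189 CPM in AA 5+3 against 258 to 384 in AA vehicle, and 396 to 659 in BCAA 5+3 against 364 to 437 in BCAA vehicle. Of the 16 cold-inducible and SR splicing factors, these 3 were higher (1.18% of all genes). Srsf10 (-0.74), Tra2b (-0.55), Srsf11 (-0.53) and Srsf1 (-0.48) were lower (4.84% of all genes). The 3 higher calls stood in each fit that left out 1 library and under each scaling; the 4 lower calls were 1 on protein-coding rows alone. The mRNA interaction of Cirbp was 2.11 (adjusted p = 0.0897) and that of Srsf5 1.47 (adjusted p = 0.218).

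**Figure D2:**
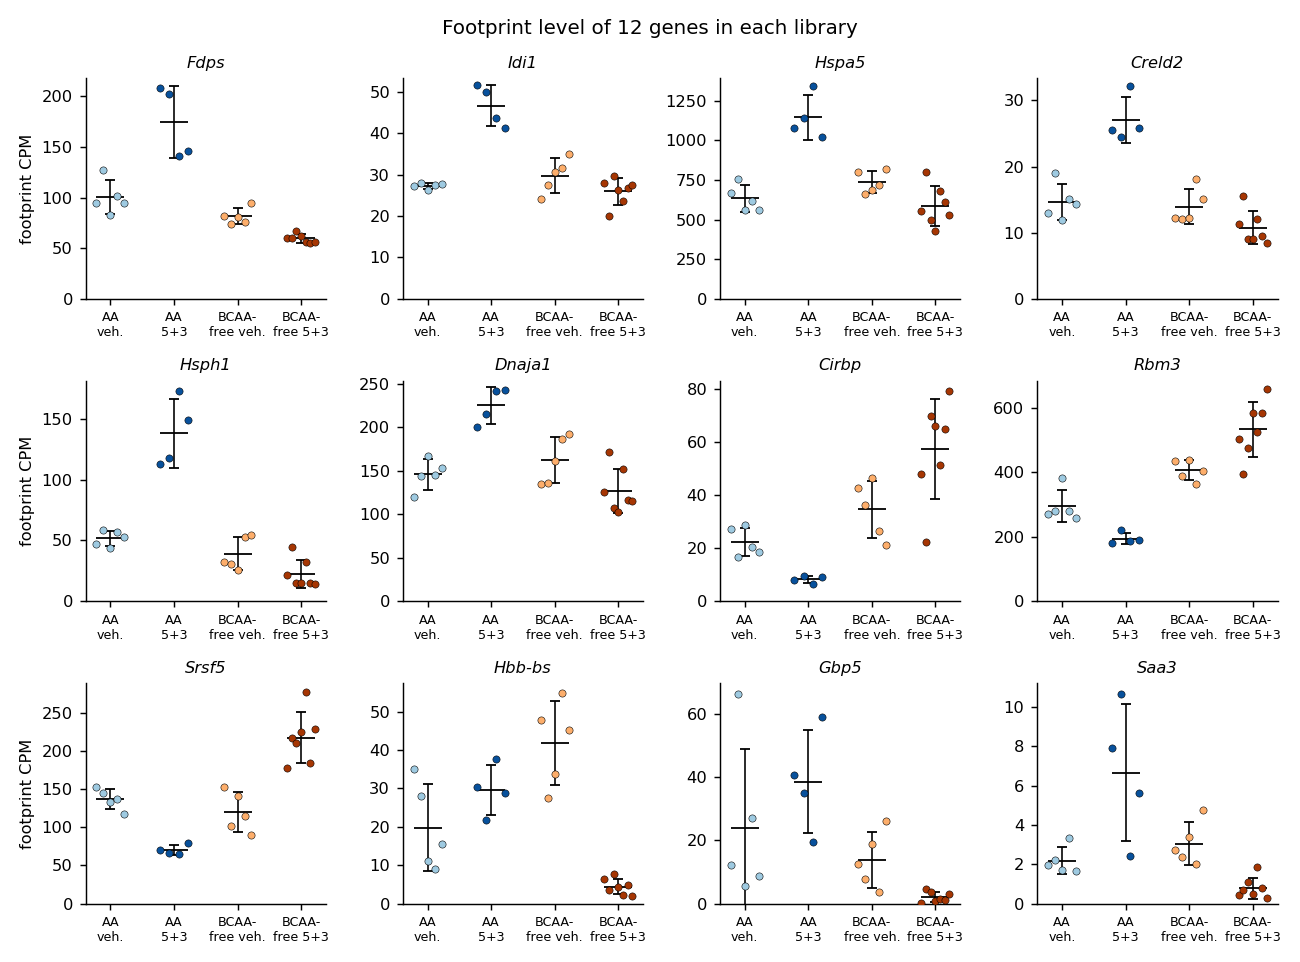
Footprint CPM of 12 genes in each library, on linear axes from 0, with 1 point per mouse, the group mean (horizontal bar) and the SD (whiskers, cut off at 0). AA 5+3 is the high group for Fdps, Idi1, Hspa5, Creld2, Hsph1 and Dnaja1 and the low group for Cirbp, Rbm3 and Srsf5; BCAA 5+3 is the low group for Hbb-bs, Gbp5 and Saa3.

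Promoter sequences are shown for 6 of these genes and of the interferon genes below, as a description of letters. Whether any factor bound them or acted on these lists was not tested. The sequences come from RefSeq (GRCm38.p6), cover the 250 bases before the first listed start and read 5′ to 3′ on the gene's strand. Capitals mark matches, on either strand, to CCAAT and the sterol element TCACNCCAC in Hmgcs1, to CCAAT and the endoplasmic reticulum stress element (CCAAT, any 9 bases, then CCACG) in Hspa5 and Creld2, to the heat shock letters GAANNTTC in Dnaja1, and to the interferon response letters (TTTC, any 2 bases, then TTTC) in Stat2 and Gbp5.
Hmgcs1 (chr13:119690101-119690350, plus strand): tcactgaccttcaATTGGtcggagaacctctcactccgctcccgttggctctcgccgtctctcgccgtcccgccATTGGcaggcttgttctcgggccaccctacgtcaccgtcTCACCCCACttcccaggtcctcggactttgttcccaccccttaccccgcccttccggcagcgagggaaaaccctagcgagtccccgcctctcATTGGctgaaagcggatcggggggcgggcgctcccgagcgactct
Hspa5 (chr2:34771840-34772089, plus strand): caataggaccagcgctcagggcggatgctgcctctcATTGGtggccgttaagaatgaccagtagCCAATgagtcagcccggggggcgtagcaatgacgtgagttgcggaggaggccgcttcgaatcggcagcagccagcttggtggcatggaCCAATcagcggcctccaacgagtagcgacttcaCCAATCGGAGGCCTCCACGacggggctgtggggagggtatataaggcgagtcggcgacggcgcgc
Creld2 (chr15:88819396-88819645, plus strand): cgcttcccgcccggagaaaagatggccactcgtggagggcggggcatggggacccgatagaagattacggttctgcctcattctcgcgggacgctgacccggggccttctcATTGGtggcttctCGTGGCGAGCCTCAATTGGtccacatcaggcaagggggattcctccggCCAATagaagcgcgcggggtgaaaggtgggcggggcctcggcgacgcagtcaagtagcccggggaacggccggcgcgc
Dnaja1 (chr4:40722218-40722467, plus strand): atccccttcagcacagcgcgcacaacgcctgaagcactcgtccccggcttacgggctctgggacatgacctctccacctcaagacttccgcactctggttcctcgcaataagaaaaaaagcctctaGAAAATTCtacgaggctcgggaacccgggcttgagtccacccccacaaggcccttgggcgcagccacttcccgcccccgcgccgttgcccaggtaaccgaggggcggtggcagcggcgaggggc
Stat2 (chr10:128270248-128270497, plus strand): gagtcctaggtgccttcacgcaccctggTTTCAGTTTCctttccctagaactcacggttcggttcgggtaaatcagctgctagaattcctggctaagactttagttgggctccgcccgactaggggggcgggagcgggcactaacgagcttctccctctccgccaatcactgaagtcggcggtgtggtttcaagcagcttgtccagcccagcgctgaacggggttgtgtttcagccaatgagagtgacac
Gbp5 (chr3:142496684-142496933, plus strand): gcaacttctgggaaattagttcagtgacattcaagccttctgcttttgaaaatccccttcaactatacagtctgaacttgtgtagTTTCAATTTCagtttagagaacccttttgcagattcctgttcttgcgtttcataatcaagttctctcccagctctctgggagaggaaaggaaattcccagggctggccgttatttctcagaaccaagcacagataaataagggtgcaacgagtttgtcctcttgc

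Windows of 300 bases, with 50 bases past the start, were found for 8054 of the 9849 genes (81.8%), and a match is only a description of letters. CCAAT, the letters bound by NF-Y, stood in 15 of the 18 cholesterol windows and in 18 of the 23 unfolded protein response windows, against 40.6% of the windows of genes tested and 37.9% of the 27025 windows in the table. Among the genes that passed, 7 of 9 cholesterol windows and 9 of 10 unfolded protein response windows held it; among all 490 called genes with a window it was 47.3%. The longer stress element contains CCAAT and stood in 8 of the 23 unfolded protein response windows, 4 of them among the 10 called, against 0.174% of genes tested and 0.13% of all windows. GAANNTTC stood in 8 of 20 heat shock windows (5.64% of genes tested, 7.95% of all windows), and TCACNCCAC in 1 of 18 cholesterol windows (0.944% and 1.22%). The interferon letters stood in 23 of 42 windows of interferon-stimulated genes (3.34% and 3.49%). The letters TCACNCCAC, GAANNTTC and the stress element were chosen after the calls were seen.

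**Figure D3:**
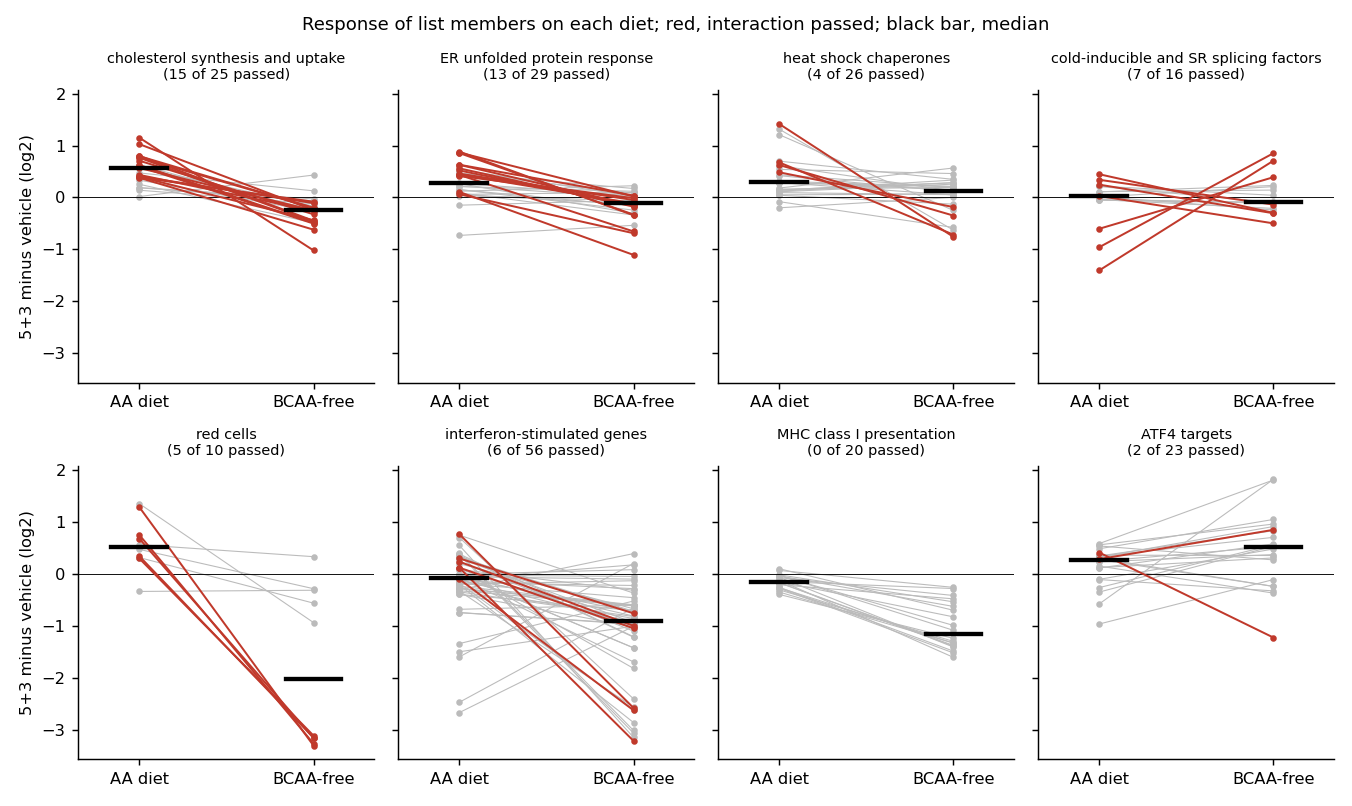
Log2 response to 5+3 of each tested member of 8 gene lists on the amino acid diet (left points) and on the BCAA-free diet (right points), joined by a line; red lines passed the interaction test and black bars are medians. The cholesterol median goes from 0.57 to -0.25 and the interferon median from -0.07 to -0.90, while ATF4 targets go from 0.27 to 0.52.

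Interferon-stimulated genes encode antiviral proteins and their controllers, and all 6 that passed were gained falls. On the BCAA-free diet 31 of 56 tested genes fell with 5+3 (15.7% of all genes) and none rose. On the amino acid diet 7 fell (2.96% of all genes) and none rose. The median response was -0.90 against -0.07, and 46 of the 56 interactions were below 0. Only 6 passed, all lower (4.84% of all genes): Stat2, Parp9, Cmpk2, Gbp5, Gbp6 and Gbp9. On protein-coding rows alone 4 passed. Under vehicle 13 of the 56 were already lower on the BCAA-free diet, with a list median of -0.62. Over all genes 2.05% differed under vehicle, in either direction. Under 5+3, 51 were lower (21% of all genes). In mRNA 0 of 58 passed in edgeR and 2 in DESeq2. An unadjusted p under 0.05 was found for 9 (7 lower, 2 higher), a share near the 14% of all mRNA genes. Stat2 (chr10:128270498-128292853), which carries the type I interferon signal, had 21.3, 41.9, 16.1, 26.3 and 28.6 CPM in AA vehicle and 33.0, 38.2, 24.5 and 29.0 in AA 5+3. It had 24.5, 24.9, 21.6, 23.8 and 30.1 CPM in BCAA vehicle and 8.26 to 16.3 (median 11.6) in BCAA 5+3. The BCAA 5+3 mice lay below the others save for 1 AA vehicle mouse at 16.1, and the interaction was -1.24 ± 0.27 (adjusted p = 0.00984).

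Gbp5 belongs to the guanylate-binding proteins, a family of near copies that can share reads. It varied widely with vehicle, from 5.51 to 66.3 CPM in AA vehicle and 3.76 to 26.2 in BCAA vehicle. It had 40.8, 34.9, 19.6 and 58.9 CPM in AA 5+3 and 0.29 to 4.59 (median 1.52) in BCAA 5+3. Its interaction of -3.35 ± 0.93 (adjusted p = 0.0382) did not pass on protein-coding rows alone, nor in 15 of the 21 fits that left out 1 library. The AA vehicle mouse with 66.3 CPM was replicate 2. Without it 25 interferon genes passed in place of 6, and without AA 5+3 replicate 4 only 1 did. Of the 20 genes of MHC class I presentation 0 passed in edgeR, though all 20 interactions were below 0 (median -0.97). On the BCAA-free diet 18 fell (15.7% of all genes) against 0 on the amino acid diet (2.96%). An unadjusted p under 0.05 was found for 15 (21.7% of all genes), and 3 passed in DESeq2. B2m, the shared light chain, had an interaction of -0.98 (adjusted p = 0.114) and H2-K1, a heavy chain, -1.22 (adjusted p = 0.0858).

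Haemoglobin genes gave the largest interactions among genes of at least 10 CPM. Hbb-bs (chr7:103826523-103827928), a beta globin, had 35.1, 28.1, 11.0, 8.97 and 15.6 CPM in AA vehicle and 30.5, 21.8, 37.6 and 28.8 in AA 5+3. It had 47.9, 27.5, 33.7, 54.7 and 45.1 CPM in BCAA vehicle and 1.98 to 7.61 (median 4.27) in BCAA 5+3, below all other mice. The response was 0.68 ± 0.36 on the amino acid diet (adjusted p = 0.288) and -3.16 ± 0.34 on the BCAA-free diet (adjusted p = 2.59e-05), an interaction of -3.84 ± 0.50 (adjusted p = 0.000543). Hbb-bt (-4.02), Hba-a1 (-3.50) and Hba-a2 (-3.41) were also gained, and the near-identical pairs may share reads. Slc4a1, the anion exchanger of the red cell membrane, had -4.59 at a mean of at most 3.60 CPM in any group. These 5 are the calls among 10 tested red cell genes, all lower (4.84% of all genes). The count was 5 to 7 when any 1 library was left out.

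The summed CPM of the 17 red cell marker genes was 106 to 239 in AA vehicle, 217 to 299 in AA 5+3, 219 to 323 in BCAA vehicle and 77.9 to 150 in BCAA 5+3. No marker was at 0 in all libraries. Klf1 and Alas2, which mark young red cells, stayed at or under 1.58 CPM in each library. Fewer cells of a type and less RNA per cell cannot be told apart in these sorted pools, and the part of red cell RNA in other results was not tested.

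Genes of mature neutrophils fell on the BCAA-free diet in 12 of 13 cases (15.7% of all genes) and on the amino acid diet in 1 (2.96%). Only 1 passed the interaction test, where 4.84% of all genes were lower. That gene was Mmp9, a gelatinase (-2.09, adjusted p = 0.0497), and its call was lost in 17 of the 21 fits that left out 1 library. All 13 interactions were below 0, with a median of -1.52. The summed level of the 14 markers was 1129 to 1537 CPM in AA vehicle, 780 to 2338 in AA 5+3, 958 to 1576 in BCAA vehicle and 143 to 1315 in BCAA 5+3. Without BCAA 5+3 replicate 3, 11 of these genes passed. Saa3, an acute-phase protein made by myeloid cells, was reversed (1.58 and -1.86; interaction -3.44 ± 0.53, adjusted p = 0.000732). It had 7.94, 10.7, 2.45 and 5.62 CPM in AA 5+3 against 1.65 to 3.35 in AA vehicle, and 0.283 to 1.85 in BCAA 5+3 against 2.01 to 4.79 in BCAA vehicle. Wfdc21 (-1.97), of the same list of 11, was a lost response. It did not pass on protein-coding rows alone, nor in 12 of the 21 fits that left out 1 library.

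Mpo, the myeloperoxidase of primary granules, had 4574, 5313, 3043, 4077 and 3647 CPM in AA vehicle and 6414, 6297, 6936 and 5156 in AA 5+3. Its values on the BCAA-free diet were 5623, 5273, 4837, 3627 and 3898 CPM with vehicle and 3530 to 4529 (median 4306) with 5+3. The rise of 0.59 on the amino acid diet was lost (interaction -0.77 ± 0.20, adjusted p = 0.0207), though not on protein-coding rows alone. With Mgst1 (-1.03) and Nkg7 (-1.12) it made up the 3 calls among 14 primary granule genes, all lower (4.84% of all genes). Nkg7 is also a T and NK cell marker, and of the 16 markers in that list it was the only 1 tested. Monocyte and macrophage genes, in contrast, fell on both diets, 11 of 18 on each. Over all genes 2.96% fell on the amino acid diet and 15.7% on the BCAA-free diet. The interaction test in edgeR was passed by 0 of the 18 (median 0.20, 3 at an unadjusted p under 0.05, and 2 in DESeq2). The summed level of monocyte and macrophage markers was 1207 to 1767 CPM in AA vehicle and 639 to 855 in AA 5+3. It was 1205 to 1584 in BCAA vehicle and 461 to 945 in BCAA 5+3. Irf8, a monocyte lineage factor picked after its values were seen, fell by 1.78 and by 1.82 on log2.

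Genes of amino acid supply gave few calls, in both directions. Of 23 ATF4 targets tested, 13 rose with 5+3 on the BCAA-free diet (5.74% of all genes rose) and 0 on the amino acid diet, with medians of 0.52 and 0.27. The difference between diets passed for Psat1 alone among these rises. Psat1, of serine synthesis, had 114, 111, 99.3, 98.5 and 95.2 CPM in AA vehicle and 132, 120, 133 and 118 in AA 5+3. It had 82.1, 93.8, 86.2, 98.4 and 74.3 CPM in BCAA vehicle and 110 to 194 (median 160) in BCAA 5+3, and the BCAA-free groups did not overlap. Its interaction was 0.56 ± 0.18 (adjusted p = 0.0494), and the call was lost in 14 of the 21 fits that left out 1 library. Asns, which makes asparagine, rose by 0.91 on the BCAA-free diet (adjusted p = 0.000545) and had 0.32 on the amino acid diet, an interaction of 0.59 (adjusted p = 0.13). Slc7a5, the importer of leucine and other large amino acids, had 0.49 (adjusted p = 0.156), and Atf4 itself -0.21 (adjusted p = 0.827). Cebpg, a partner of ATF4, went the other way: it fell on the BCAA-free diet to 1.52 to 3.68 CPM, below all other mice (4.12 to 10.6), with an interaction of -1.64 ± 0.29 (adjusted p = 0.00181).

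Cytosolic tRNA synthetases charge tRNAs with their amino acids. On the BCAA-free diet 11 of 23 rose with 5+3 (5.74% of all genes) and on the amino acid diet 5 did (3.43%). The interaction test was passed by 2, both higher (1.18% of all genes). Lars, the leucine enzyme, had 153, 150, 167, 113 and 149 CPM in AA vehicle and 167, 149, 163 and 145 in AA 5+3. It had 119, 122, 128, 119 and 110 CPM in BCAA vehicle and 162 to 253 (median 178) in BCAA 5+3, above each BCAA vehicle mouse (interaction 0.61 ± 0.17, adjusted p = 0.0277). Eprs, for glutamate and proline, had 0.53 (adjusted p = 0.0441), a call lost in 10 of the 21 fits that left out 1 library. Without AA 5+3 replicate 2 neither synthetase passed. Of 27 genes of BCAA breakdown only Bcat2, the mitochondrial aminotransferase that takes the first step, passed (-0.48 ± 0.14, adjusted p = 0.0382). Over all genes 4.84% passed with a lower response. Bcat2 did not pass on protein-coding rows alone, nor in 11 of the 21 fits that left out 1 library. Bckdha, a subunit of the next enzyme, fell on the amino acid diet (-0.70, adjusted p = 0.0145), but its interaction of 0.39 did not pass (adjusted p = 0.301). Among 39 genes of mTORC1 and amino acid sensing, Lamtor3 (-0.78), Nprl2 (-0.96) and Eif2ak3 (-0.83) were gained falls, a share near the 4.84% of all genes. The first anchors mTORC1 at the lysosome, and the second belongs to GATOR1, its inhibitor. Eif2ak3 encodes PERK, a kinase of the unfolded protein response, and is not itself an amino acid sensor. The Eif2ak3 call was lost on protein-coding rows alone and in 6 of the 21 fits that left out 1 library.

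Genes of the translation machinery rose more often with 5+3 on the BCAA-free diet (5.74% of all genes) than on the amino acid diet (3.43%), while few passed the interaction test. The rises were 22 against 1 of 48 translation factors, 20 against 0 of 83 cytosolic ribosomal proteins and 18 against 1 of 55 ribosome biogenesis genes. Of the ribosome biogenesis genes 3 passed, all gained rises (1.18% of all genes were higher): Ncl (nucleolin, 0.64), Nhp2 (0.56) and Wdr12 (0.42). Of the ribosomal protein genes 2 passed, both higher: Rps18 (0.54) and the copy Rpl32l (0.76), which may share reads with its parent. On protein-coding rows alone 5 passed, and leaving out 1 library gave 0 to 13. The count was 0 without AA vehicle replicate 4, AA 5+3 replicate 1 or 3, or BCAA vehicle replicate 5. It was 5 and 10 without AA vehicle replicates 1 and 2, 13 without BCAA vehicle replicate 2 and 11 without BCAA 5+3 replicate 3. Translation factors gave 0 calls of 48 in edgeR (10 at an unadjusted p under 0.05, 1 in DESeq2, 2 on protein-coding rows alone). Mitochondrial ribosomal proteins gave 2 of 78, Mrpl21 (-0.60) and Mrpl14 (-0.57), both lower (4.84% of all genes), and 0 on protein-coding rows alone. These calls were lost in 6 and 16 of the 21 fits that left out 1 library. The 13 proteins encoded in mitochondrial DNA had interactions below 0 in all 13 cases with 11 falls on the BCAA-free diet (15.7% of all genes). Of the 13, mt-Atp6 passed (-0.60), though not on protein-coding rows alone nor in 8 of those 21 fits. Among 77 nuclear subunits of oxidative phosphorylation 0 passed in edgeR or DESeq2, and 2 had an unadjusted p under 0.05. Pfkl, of glycolysis, was the 1 call of 29 in its list (lost, -1.0), a share near the 4.84% of all genes. Its mean was 77.1 CPM in AA 5+3 against 28.6 to 47.4 in the other groups.

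The p53 and cell cycle lists gave few calls. Cdkn1a, the p53 target that halts the cell cycle, had 3.55, 1.87, 4.56, 3.50 and 5.87 CPM in AA vehicle and 12.2, 17.2, 7.08 and 12.1 in AA 5+3. Its values on the BCAA-free diet were 6.80, 4.51, 3.73, 5.02 and 5.02 CPM with vehicle and 8.02 to 18.3 (median 12.8) with 5+3. It rose by 1.59 ± 0.27 and 1.45 ± 0.24, with an interaction of -0.14 ± 0.37 (adjusted p = 0.86). Of 28 p53 targets 1 passed, Apaf1 of the apoptosome (-0.74, gained). Of 51 S-phase genes Pola2 (-0.96) and Tyms (-0.64) passed, and of 50 mitotic genes Tacc3 (-0.59). In the p53, S-phase and mitotic lists the lower calls were near or under the 4.84% share of all genes. The Tacc3 call was lost on protein-coding rows alone and in 16 of the 21 fits that left out 1 library. The MLL-AF9 programme gave 0 of 22 in edgeR and DESeq2 (4 at an unadjusted p under 0.05), with Hoxa9 at 0.07 ± 0.19, Meis1 at -0.11 ± 0.16 and Myc at 0.17 ± 0.17. Drug handling gave 0 of 22 (2 at an unadjusted p under 0.05, 0 in DESeq2) and antioxidant defence 0 of 27 (4, and 2 in DESeq2). The cytokine list gave 1 of 26, Csf2ra (0.58), a receptor chain for GM-CSF (1.18% of all genes were higher). In the list of replication-dependent histone genes 61 of 62 interactions were below 0 (median -0.49). The 1 call there, H1f0, was the 1 above 0 (1.40). H1f0 is a linker histone that is not replication-dependent, so no true member of the set passed. Of 15 genes of the leukaemia and amino acid panel 12 could be tested, and Bcat2 alone passed.

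Other genes stood out by size. P4ha1, a collagen prolyl hydroxylase, was reversed (0.99 and -0.46), as were Mov10, an RNA helicase (0.73 and -0.63), and Ints3, of the Integrator complex (0.48 and -0.83). Evl, an actin regulator, fell on both diets, by 1.95 on the amino acid diet and by 0.66 on the BCAA-free diet, with an interaction of 1.29 (adjusted p = 0.0401) whose call was lost in limma and in 14 of the 21 fits that left out 1 library. H1f0, a linker histone, was lost: it changed by -1.12 on the amino acid diet and by 0.29 on the BCAA-free diet. Gata2, a progenitor factor, was lost as well (-1.29 and 0.10). Its call did not stand in limma nor in 9 of the 21 fits that left out 1 library. Ptpn13, a phosphatase, was reversed (-1.19 and 0.68) and Actg2, an actin, was lost (interaction 1.18). Both had almost no mRNA, with group means of at most 0.431 and 0.13 CPM, while their mean footprint levels in AA vehicle were 51.0 and 150 CPM, and Actg2 has near copies that can share reads.

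The mRNA of the same mice gave few calls. An unadjusted p under 0.05 was found for 1960 protein-coding genes (14%). Of 14009 protein-coding genes 15 (0.107%) passed, 5 higher (0.0357%) and 10 lower (0.0714%), at a median SE of 0.48 against 0.22 in footprints. They were led by Hbb-bt (-7.47), Hba-a2 (-7.39), Hba-a1 (-6.86), Hbb-bs (-6.65), Guca1b (-4.17) and Saa3 (-4.06), with S100a8 (-3.41), S100a9 (-3.46) and Wfdc21 (-3.33) of neutrophils. Hmgb3 (1.47), Adss (1.09) and Fbp1 (2.05) were higher. Of the 15, 14 were tested in footprints and 8 were called there too. Of the 593 footprint genes 580 were tested in mRNA, and 386 (66.6%) had the same sign, against 54.7% of the 9622 genes tested in both. Over the 580 genes, Pearson's r between the interactions was 0.58 and Spearman's rho 0.51. These values share their mice and the genes are not independent. By class, 57 of 100 lost genes, 265 of 388 gained genes and 24 of 28 reversed genes had the same sign. Whether footprints and mRNA differ in their interaction was not tested.

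**Figure D4:**
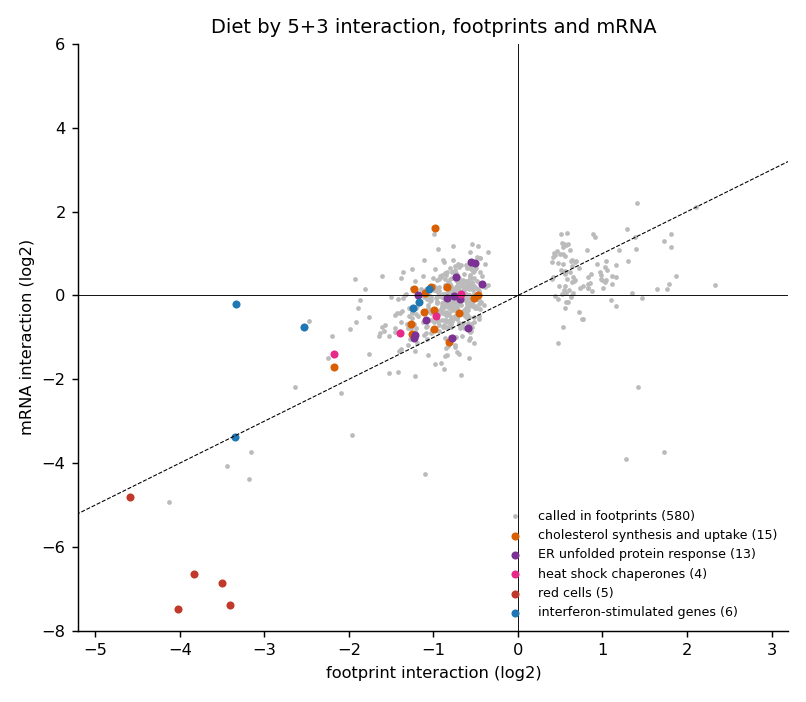
Interaction in footprints (horizontal, log2) and in mRNA (vertical, log2) of the 580 genes called in footprints and tested in mRNA, with 5 lists in colour; the dashed line marks equal values. The haemoglobin genes lie lowest in mRNA (-6.65 to -7.47), while the cholesterol and unfolded protein response genes lie near 0 in mRNA or on either side of it.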

How the data were processed

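Footprints and mRNA came from the same 21 sorted leukaemia samples, 1 mouse each. The deposited files hold raw counts per gene. Per the submitters' processing notes the authors used cutadapt, Bowtie2, STAR, SAMtools and featureCounts with GRCm38 (mm10); the annotation is not given in the sources used here, nor are versions or strandedness. Reads of near copies (globin, Gbp and actin genes, Acat2 and Acat3, Rpl32l) may be split between them. Of 55487 gene identifiers, 55141 (99.4%) had a symbol, and 21400 were protein-coding in RefSeq by symbol.

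From the counts, genes were kept by filterByExpr (minimum count 10, minimum total 15), scaled by TMM and fitted with edgeR 4.0.16 in R 4.3.3 (robust quasi-likelihood, all 4 groups in 1 fit, 5 contrasts). P-values were adjusted by Benjamini-Hochberg over all genes tested, coding or not, at a threshold of 0.05, and protein-coding genes are reported. DESeq2 1.42.0, limma 3.58.1 (voom), other scalings, no filter, a replicate block, and fits without single libraries were alternatives. Footprint counts of 15475 genes were simulated with this design, with 100 genes changed by 1 on log2 and 100 by 2. Of these changed genes, 73% and 97% were recovered. For mRNA (20221 genes, 100 changed by each amount) it was 4% and 63%. The shares describe the changed genes alone, and recovery among genes at low counts was not tested. Counts of replicate mice exceeded sampling noise in all 47 within-group footprint pairs (chi-square per degree of freedom 4.34 to 27.1).

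Genes named are the 6 largest interactions among lost, gained and reversed genes and the 4 largest among the rest (mean of at least 10 CPM, no predicted genes), up to 3 called members per list, and a panel of 15; other names were picked after their values were seen. The members and gene lists were chosen with earlier results of these data known.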

Additional observations from a re-analysis of the deposited data

Results flagged for a closer look

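These interactions are listed because the test of the difference between the diets passed (edgeR's quasi-likelihood test, adjusted over all genes). Among named genes the lost responses were Hsph1 (-2.17), Cirbp (2.11), H1f0 (1.40), Creld2 (-1.23), Hspa5 (-1.18), Actg2 (1.18), Mpo (-0.77), Wfdc21 (-1.97), Idi1 (-0.98), Hspa4l (-0.67), Pfkl (-1.0), Mrpl21 (-0.60), Tyms (-0.64), Tacc3 (-0.59), Csf2ra (0.58) and Gata2 (1.39), on log2. The gained falls were Hbb-bt (-4.02), Hbb-bs (-3.84), Hba-a1 (-3.50), Hba-a2 (-3.41), Slc4a1 (-4.59), Gbp5 (-3.35), Gbp6 (-3.33), Stat2 (-1.24), Parp9 (-1.06), Cmpk2 (-1.17), Mgst1 (-1.03), Nkg7 (-1.12), Cebpg (-1.64), Lamtor3 (-0.78), Nprl2 (-0.96), Eif2ak3 (-0.83), Apaf1 (-0.74), mt-Atp6 (-0.60), Mrpl14 (-0.57), Pola2 (-0.96), Tfe3 (-1.03), Mmp9 (-2.09) and H2-Eb1 (-1.53). The gained rises were Psat1 (0.56), Lars (0.61), Eprs (0.53), Rps18 (0.54), Ncl (0.64), Wdr12 (0.42) and Nhp2 (0.56).

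Reversed responses were Ptpn13 (1.87), Srsf5 (1.81), P4ha1 (-1.45), Mov10 (-1.36), Ints3 (-1.30), Acat3 (-1.29), Saa3 (-3.44), Fdps (-1.25), Mvd (-2.17), Syvn1 (-1.09), Dnaja1 (-0.97) and Rbm3 (0.99). Evl (1.29) changed in the same direction on both diets. Neither response passed by itself for Chordc1 (-1.39), Vps50 (-1.20), Nup35 (-0.95), Heatr6 (-0.89), Bcat2 (-0.48) and Rpl32l (0.76). In mRNA the interactions that passed were Hbb-bt (-7.47), Hba-a2 (-7.39), Hbb-bs (-6.65), Hba-a1 (-6.86), Saa3 (-4.06), Guca1b (-4.17), S100a9 (-3.46), S100a8 (-3.41), Wfdc21 (-3.33), Il21r (-1.24), Hmgb3 (1.47), D16Ertd472e (1.34), Adss (1.09), Fbp1 (2.05) and Pex7 (1.36).

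Of 304 groups of values of named genes, 17 (5.59%) held 1 library far from the others, where chance flags about 1 in 20. AA 5+3 replicate 3 accounted for 5: it was low for H1f0 (5.99 CPM), Mgst1 (16.3) and Pola2 (27.8) and high for Hba-a1 (38.9) and mt-Atp6 (220 CPM). In BCAA 5+3, replicate 3 was high for Mgst1 (19.3 CPM) and Mmp9 (20.0), replicate 1 was low for Actg2 (58.9) and high for Lamtor3 (12.3), and replicate 5 was low for Cebpg (1.52). In AA vehicle, replicate 2 was high for Bcat2 (44.2 CPM), replicate 3 high for Rbm3 (384) and replicate 4 low for Mki67 (483). In BCAA vehicle, replicate 2 was high for Rps18 (413 CPM) and Rpl32l (175), and replicate 5 was high for Nprl2 (10.3) and low for Asns (49.9).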

How the results depend on the processing

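Of 65 interactions called for named genes, 65 kept their call with median-ratio scaling, 63 in DESeq2, 59 in limma, 55 with no filter, 50 on protein-coding rows alone and 58 without the 2 shallowest libraries (AA vehicle replicates 1 and 2). In the fits that left out 1 library, 33 of the 65 kept it in all 21. On protein-coding rows alone 195 genes were higher and 268 lower. Without the 2 shallowest libraries 935 passed, 216 higher and 719 lower, with 211 lost and 48 reversed. Leaving out 1 library gave 301 to 812 calls, 71 to 163 higher and 228 to 649 lower, with 51 to 168 lost, 197 to 522 gained and 11 to 51 reversed. Classes set by the sign and size of the fitted responses alone gave 16 lost, 51 gained and 526 reversed, and a threshold of 0.1 for the responses gave 68 reversed. The cause of these shifts was not tested.

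Replicate numbers do not pair the mice: same-numbered libraries correlated at a median of 0.00857 (-0.252 to 0.336), and 4 of 19 libraries correlated best with their own number. The fit with the replicate number as a block called 250 genes and kept 31 of the 65 named calls, with 48 higher and 202 lower, with 55 lost, 163 gained and 13 reversed, and 6 in mRNA (1 higher, 5 lower).

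In mRNA 17 were lower with median-ratio scaling, 2 higher with no filter, 149 passed in DESeq2 (53 higher, 96 lower) and 32 on protein-coding rows alone (8 higher, 24 lower). Leaving out 1 library gave 5 to 27 calls, 0 to 9 higher and 5 to 18 lower. Signs turned for 4 genes that had not passed. Without the 2 shallowest libraries Cdkn1a was at 0.061, Hoxa9 at -0.041 and Meis1 at 0.011. Over fits without 1 library Atf4 ran from -0.57 to 0.024, Cdkn1a from -0.34 to 0.073 and Hoxa9 from -0.021 to 0.17.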

Other observations

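Ribosomal protein genes, which encode the structural proteins of the cytosolic ribosome, had footprint interactions above 0 in most cases, with a median of 0.24 and 9 of 83 below 0. In mRNA 30 of 82 had an unadjusted p under 0.05 (14% of all mRNA genes in either direction), all of them lower on the BCAA-free diet. In edgeR and DESeq2 0 passed. Ribosome biogenesis genes had a median footprint interaction of 0.11. In mRNA 16 of 55 had an unadjusted p under 0.05 (14% of all mRNA genes), 15 of them higher (0 passed in edgeR, 1 in DESeq2). The difference between footprints and mRNA was not tested.

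Some responses were shared by both diets. Among genes picked after their values were seen, Pim1, a survival kinase, rose by 2.45 on log2 on the amino acid diet and by 2.80 on the BCAA-free diet. Ms4a3, a marker of granulocyte and monocyte progenitors, rose by 2.08 and 1.85.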
